A study of Mus musculus with 2 samples.

Results

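The last part of the large olfactory receptor cluster on mouse chromosome 2 was described across its genes. Its members were taken by position: every entry of the deposited receptor table whose locus starts between 88.5 and 90.5 Mb of chromosome 2 in the mouse build mm9, with Olfr73 left out. The rule gave 75 of the 1112 entries, under 74 names, from Olfr1193 at 88518014 to the end of Olfr1274-ps at 90420942. Olfr73 is listed at 87.9 Mb, outside these bounds, so leaving it out removed no entry. All 75 entries were class II receptors, the class of most mammalian odorant receptors.

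RNA came from the olfactory epithelium of adult C57BL/6 mice. Of the 2 samples, each is labelled wild type in its title and its genotype. Their descriptions differ, however, with the first named wt and the second 3bko, a term the labels do not explain. The table gives a single FPKM (fragments mapped to a gene, scaled by its length and by library size) per entry and does not say which of the samples it comes from. Beside each value it carries a pair of constant columns that name wt as sample 1 and 3bko as sample 2, the layout of a comparison, but it holds no second value. Each value below is therefore the authors' value for 1 gene, without replicate, standard deviation or known depth, and differences between genes were described and not tested. The sources used here do not say whether the epithelia came from separate animals or from pools.

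Olfactory receptors are G protein-coupled receptors of the sensory neurons in the nose. A mature neuron transcribes 1 allele of 1 receptor gene, chosen from the whole repertoire, and signals through the olfactory G protein, adenylyl cyclase and a cyclic nucleotide-gated channel. The genes lie in tandem clusters made by local duplication, and relatives are grouped into MOR families by protein sequence. In RNA from whole tissue, more neurons choosing a receptor and more RNA per neuron cannot be told apart. The table holds receptor genes only. None of 30 genes from lists for neuron maturation, signalling, supporting cells, basal cells, respiratory epithelium and receptor choice was in it, so the make-up of the tissue was not measured.

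Sequences are shown first for 3 sets of close relatives whose levels frame the results. The letters come from GENCODE M21 transcripts. Each line gives the 120 coding bases that hold the most differences between the first and the second gene, and positions count from the first base of the start codon of the gene named first. Capitals mark bases that differ from that gene. The first set is the MOR234 family, 3 neighbours with the highest family median of the stretch. It is shown at bases 394 to 513.
Olfr1261: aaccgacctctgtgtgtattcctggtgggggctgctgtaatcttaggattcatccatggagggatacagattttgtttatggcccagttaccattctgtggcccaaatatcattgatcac
Olfr1263: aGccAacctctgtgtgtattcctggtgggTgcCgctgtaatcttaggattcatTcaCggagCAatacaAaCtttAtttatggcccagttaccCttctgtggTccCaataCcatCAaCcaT
Olfr1262: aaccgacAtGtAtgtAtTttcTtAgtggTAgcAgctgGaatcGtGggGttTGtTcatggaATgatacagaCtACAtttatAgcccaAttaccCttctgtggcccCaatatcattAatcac
Olfr1261 had an FPKM of 15.97, Olfr1262 had 13.4 and Olfr1263 had 9.59. Over the whole coding sequence Olfr1263 differed from Olfr1261 at 42 bases and Olfr1262 at 79, with another 8 gap letters.

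The second set is from the MOR231 family and pairs similar coding sequences with unequal levels. It is shown at bases 546 to 665.
Olfr1251: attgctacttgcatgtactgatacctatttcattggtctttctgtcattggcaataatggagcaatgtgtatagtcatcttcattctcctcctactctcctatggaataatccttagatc
Olfr1249: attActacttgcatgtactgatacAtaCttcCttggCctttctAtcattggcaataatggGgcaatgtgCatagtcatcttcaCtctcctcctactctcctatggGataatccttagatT
Olfr1253: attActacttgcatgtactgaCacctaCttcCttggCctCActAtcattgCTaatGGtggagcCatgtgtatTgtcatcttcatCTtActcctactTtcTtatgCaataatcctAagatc
Olfr1251 had an FPKM of 8.90, Olfr1253 had 2.87 and Olfr1249 had 0.519. Olfr1249 differed from Olfr1251 at 37 of 954 coding bases and Olfr1253 at 58, so the closer relative had the lower value.

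The third set holds the most alike proteins of the stretch, both of the MOR228 family, at bases 274 to 393.
Olfr1506: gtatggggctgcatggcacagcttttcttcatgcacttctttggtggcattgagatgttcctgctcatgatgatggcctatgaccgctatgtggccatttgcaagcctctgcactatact
Olfr1274-ps: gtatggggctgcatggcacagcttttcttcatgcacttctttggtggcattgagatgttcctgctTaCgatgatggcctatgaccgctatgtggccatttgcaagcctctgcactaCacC
They differed at 15 of 927 coding bases. Olfr1506 had an FPKM of 1.04 and Olfr1274-ps had 2.96. Both values are uncertain, because only 46.2% and 45.4% of their coding 50-mers occurred in no other Olfr transcript, so reads could be shared between them.

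Receptors of this stretch had higher FPKM than most of the repertoire. The median was 3.20 with an interquartile range of 1.40 to 6.12, against 1.01 and 0.353 to 2.78 over the 1037 other entries. The ratio of the medians was 3.17, a difference of 1.57 on the log2(FPKM + 0.1) scale. Against the 150 entries from 85 to 88.5 Mb, which belong to the same chromosome 2 cluster and had a median of 0.823, the ratio was 3.89 and the log2 difference 1.84. Against entries outside chromosome 2, with a median of 1.03, the ratio was 3.10. The log2 scale with a pseudocount of 0.1 understates differences between low genes.

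Higher values were spread over many receptors and did not rest on a few. At an FPKM of 1 or above stood 61 of the 75 entries (81.3%), where 52.5% of the whole table did. A level of 5 was reached by 23 (30.7%), against 14.3% of all entries, and a level of 10 by 10 (13.3%), against 5.40%. In the rest of the cluster the corresponding counts were 60, 9 and 2 of 150. Of the 75, 39 (52.0%) lay above the upper quartile of the whole table. The stretch contributed 6.74% of the table's entries but 11.3% of its summed FPKM, and the rest of the cluster 13.5% and 7.47%.

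The highest entries of the table lay outside the stretch. It held 6.74% of all entries, so few of the 20 highest would fall in it at that share, and none did. Of the 50 highest it held 7 (14%), and of the 100 highest 16 (16%). The highest of the stretch, Olfr1261, ranked 25 of 1112. Its level was 4.99 times the median of the stretch, and the 10 highest genes held 37.9% of the stretch's sum.

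**Figure D1:**
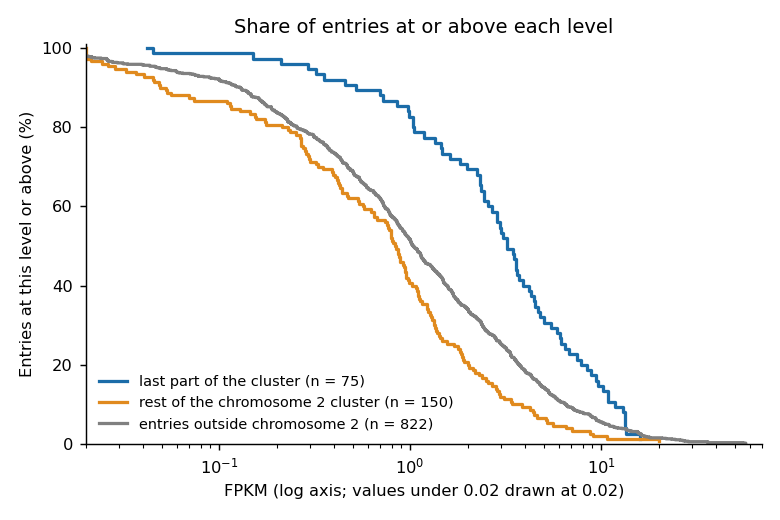
Percentage of entries (vertical axis) at or above each FPKM (horizontal log axis) for the 75 entries of the last part of the chromosome 2 cluster, the 150 entries of its rest and the 822 entries outside chromosome 2. At an FPKM of 1 the blue, orange and grey curves stand at 61 of 75, 60 of 150 and 423 of 822 entries, and they meet above 10, where the highest entries of the table lie outside the stretch.

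Along the chromosome the level was uneven. In steps of 0.5 Mb, the medians from 85 to 88.5 Mb ranged from 0.476 to 1.32. In the first step of the stretch the median was 3.20 over 27 entries, in the second it was 2.85 over 21, and in the third, which ends at 90 Mb, it was 6.46 over 20. The last 7 entries, beyond 90 Mb, had a median of 1.04, which is the value of Olfr1506, listed among them at both of its loci. With that value counted once, the median of the 6 genes was 1.65. None of these genes reached 5, and the highest, Olfr142, had 3.24. Without the 20 entries of the third step, the log2 difference from the rest of the cluster was 1.68.

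The lower bound of the stretch falls in a gap between genes. Just inside it, Olfr1193 had an FPKM of 6.08 and Olfr1195 had 4.68. Just outside it, Olfr1189 (88431963 to 88432883) had 1.36 and Olfr1188 (88399608 to 88400575) had 0.0451. Farther out, Olfr1186 had 0.268, Olfr1184 had 2.97, Olfr1183 had 2.84 and Olfr1182 had 4.41, so levels on both sides of this bound overlapped.

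**Figure D2:**
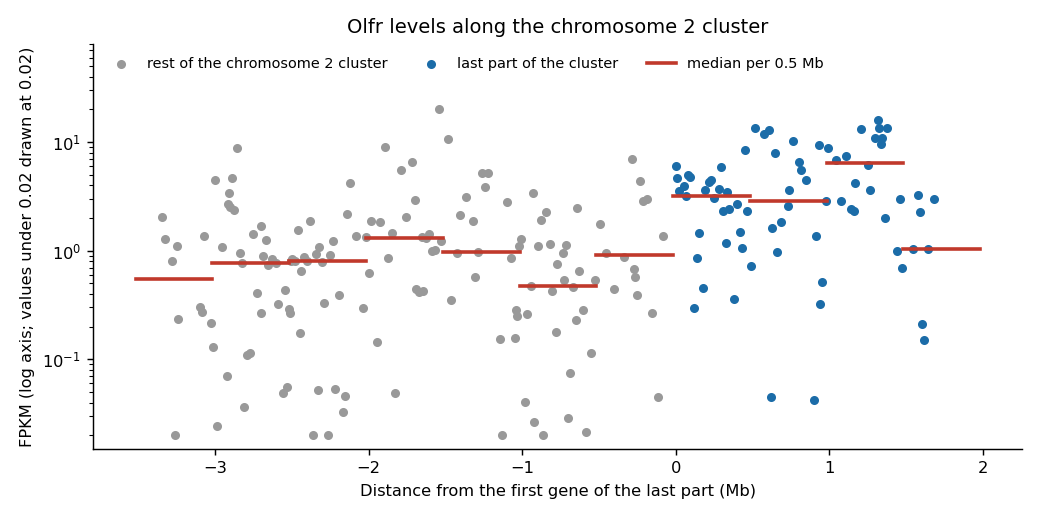
FPKM (vertical log axis) of each Olfr entry against the distance of its start from that of Olfr1193 (horizontal axis, Mb), in grey for the rest of the chromosome 2 cluster and in blue for its last part; red bars are medians per 0.5 Mb. The 3 bars from 88.5 to 90 Mb stand at 3.20, 2.85 and 6.46, above all 7 bars to their left, and the last stands at 1.04, with the value of Olfr1506 counted at both loci (1.65 with it counted once).

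Of the 23 receptors with an FPKM of 5 or more, 15 stood in 5 runs of consecutive genes and 8 stood alone. With 30.7% of the entries at this level, runs also arise in a random order. The counts were not compared with such an order, so they do not show clustering. The longest run had 5 consecutive genes, Olfr1260, Olfr1261, Olfr1262, Olfr1263 and Olfr1264, in 44.3 kb (89817937 to 89862221). They had FPKMs of 10.9, 15.97, 13.4, 9.59 and 10.9, and come from the families MOR232, MOR234 and MOR236. These 5 genes held 18.2% of the stretch's sum and 2.05% of the sum of all Olfr genes. The run ended at Olfr1265, at 1.98, after which Olfr140 (89891571 to 89892479) stood at 13.4. Another run was Olfr1226, Olfr1228 and Olfr1229, with 13.5, 11.8 and 13.0, all of them MOR233 genes.

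Adjacent genes differed less than genes taken from anywhere in the stretch. The median absolute difference was 1.15 log2 units over 74 adjacent pairs, equal to a ratio of 2.22, and 1.51 over all 2775 pairs. For 36 adjacent pairs of the same family it was 1.01, and for the other 38 it was 1.25. The other pairs include those with a gene given no single family name, such as Olfr1245, Olfr1248 and Olfr1252. Some of them may join relatives, so these medians do not cleanly separate pairs within and between families. Adjacent entries in the rest of the cluster differed by a median of 1.44. Pairs share genes and are not independent, so these medians are a description.

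Sharp steps between neighbours occurred as well. Olfr1229 at 13.0 was followed, after 13.2 kb, by Olfr1230 at 0.0449. Olfr1243 at 4.49 was followed by Olfr1245 at 0.0419, and Olfr1247 at 9.37 by Olfr1248 at 0.323, only 7.02 kb away. The smallest steps were those of Olfr1208 and Olfr1209 (4.31 and 4.43), Olfr1255 and Olfr1256 (2.43 and 2.33) and Olfr1199 and Olfr1200 (5.01 and 4.80). Every one of these 3 pairs joins genes of different families.

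The receptors belong to 12 MOR families, of which 8 had 3 or more members here and held 64 of the 75 entries. Another 6 entries had no single family name. Of the 12 families, 6 had no entry elsewhere in the table, so for these family and position cannot be told apart.

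The 14 proximal genes, from Olfr1193 to Olfr1209 (88518014 to 88750548), were mostly MOR225 and MOR230 receptors. The 5 MOR225 entries were close to each other, from 3.20 (Olfr1198) to 4.80 (Olfr1200), with Olfr1196 at 3.51, Olfr1197 at 3.91 and Olfr1208 at 4.31. Another 6 MOR225 entries lie outside the stretch and ranged from 0.388 to 7.05 with a median of 1.82. The ranges of the inner and outer MOR225 genes overlapped. Reads of Olfr1196 and Olfr1197 may be shared, since 51.2% and 48.6% of their coding 50-mers were unique.

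MOR230 was divided in level. Olfr1199 had 5.01, Olfr1195 had 4.68, Olfr1209 had 4.43 and Olfr1206 had 3.59, while Olfr1205 had 1.45 and Olfr1201 had 0.294. The lowest and the highest of these 6 genes differed 17.1-fold. Olfr1193, the first gene of the stretch, carries a MOR226 and a MOR230 name and was placed in neither.

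MOR233 was the largest family, with 17 entries from 88769535 to 89166335 and none elsewhere. Its median was 3.07 and its range 0.355 (Olfr1218) to 13.5 (Olfr1226), a 38.1-fold span. Olfr1229 had 13.0, Olfr1228 had 11.8, Olfr1222 had 8.47 and Olfr1232 had 7.85, and 2 of the 17 entries were below 1. Its 4 most distal genes, Olfr1226, Olfr1228, Olfr1229 and Olfr1232, had 7.85 or more. Among the others only Olfr1222 was above 6, between Olfr1221 at 1.05 and Olfr1223 at 2.34, with Olfr1225 next at 0.724. Olfr1220, at 1.48, has a synonym written without a hyphen that looks like a MOR233 name. It was not counted in the family, whose median was 2.89 with it. Without it, the family held 25.2% of the sum of the stretch.

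MOR231 followed with 14 entries, from 89202640 to 89676100, and a median of 4.05. Olfr1240 (89279427 to 89280500) was highest at 10.3, then Olfr1247 at 9.37 and Olfr1251 at 8.90, and Olfr1249 was lowest at 0.519. Interspersed among them were 3 genes whose listed synonyms, written without a hyphen, look like MOR231 names: Olfr1246 at 1.35, Olfr1248 at 0.323 and Olfr1245 at 0.0419. They were not counted in the family. With them, its median was 2.87. Olfr1245 was the lowest entry of the stretch, with 100% of its coding 50-mers unique.

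MOR232 had its members in separate places. Olfr1202 and Olfr1204, among the proximal MOR230 genes, had 0.859 and 0.454. The distal members, from 89656485 to 89818869, were higher: Olfr1257 had 13.3, Olfr1260 had 10.9, Olfr1258 had 6.15, Olfr48 had 4.21, Olfr1259 had 3.61 and Olfr1255 had 2.43. The 2 proximal values lay below the 6 distal ones, but 2 genes are too few to characterise a position. Olfr1202 and Olfr1204 had 95.5% protein identity. In each, 66.9% of the coding 50-mers were unique, so they could share reads. The position was seen together with the values, and the difference was not tested. Another MOR232 gene lies on chromosome 7, and had 11.1.

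The 3 MOR234 genes had the highest family median, at 13.4 (range 9.59 to 15.97). All of them stand in the run described above. Between 48.9% (Olfr1263) and 70.8% (Olfr1262) of their coding 50-mers were unique, so the division of reads among the 3 is uncertain. Their neighbour Olfr1264, the only MOR236 gene, had 10.9 with 99.3% unique, and Olfr140, a MOR235 receptor, had 13.4 with 99.3% unique. The other MOR235 gene, Olfr1231, lies among the MOR233 genes and had 1.62.

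The distal families were lower. MOR228 had a median of 1.04 over 5 entries, or 1.51 with the shared value of Olfr1506 counted once, of which the highest was Olfr1274-ps at 2.96 and the lowest Olfr1269 at 0.992. MOR227 had 1.48 over 6 entries, with Olfr142 at 3.24, Olfr32 at 2.99, Olfr1271 at 2.26, Olfr1270 at 0.699, Olfr1272 at 0.212 and Olfr1273-ps at 0.150. None of these 11 entries reached 5, where 14.3% of all entries did, so few would reach it at that share. Without Olfr1273-ps, typed as a transcribed pseudogene in the RefSeq table, the MOR227 median was 2.26.

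**Figure D3:**
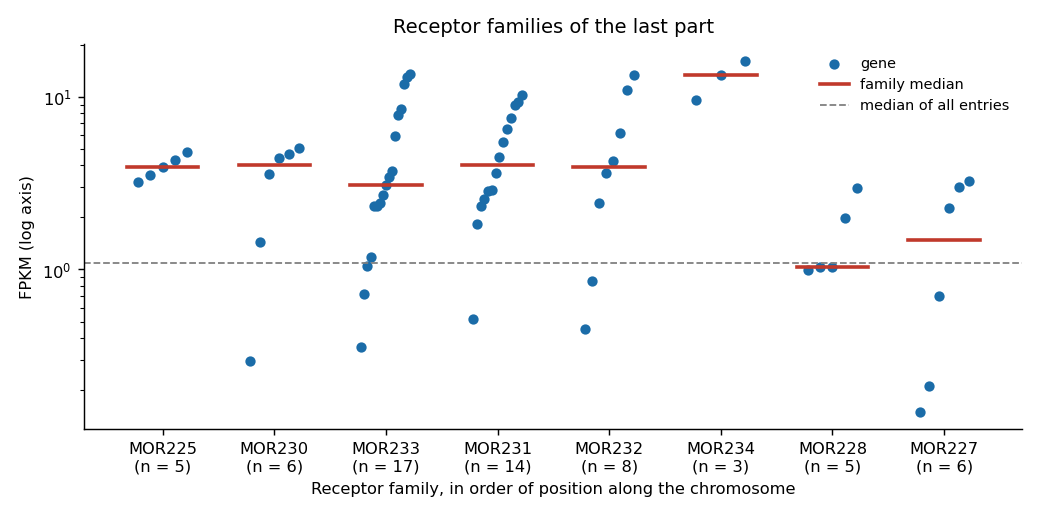
FPKM (vertical log axis) of each gene of the 8 families with 3 or more entries in the stretch, with families ordered along the horizontal axis by position and genes within a family by level; red bars are family medians and the dashed line is the median of all 1112 entries, 1.09. The MOR234 bar is highest at 13.4, the MOR225 genes lie closest together (3.20 to 4.80), and the MOR228 bar lies at 1.04 with Olfr1506 drawn at both of its loci (1.51 with it counted once).

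Some entries need care. Olfr1506 is listed at 90061724 to 90064628 and again at 90162379 to 90165283, each 2905 bp long, with the same FPKM of 1.04, so this is 1 value and not a pair of measurements. Olfr1274-ps has a listed locus of 224183 bp, while its RefSeq gene is protein-coding despite the name. Of the 75 loci, 55 had just the length of the GENCODE M21 coding sequence (the stop codon included or not), so their FPKM does not cover untranslated regions. Only 6 loci were 2000 bp or longer, among them Olfr1213 (7314 bp, FPKM 5.89) and Olfr1223 (7251 bp, FPKM 2.34). The status was NOTEST, with which Cuffdiff marks too few alignments for a test, for 5 entries (6.67%), against 24.7% in the rest of the cluster and 18.3% of the table. They were Olfr1201, Olfr1230, Olfr1245, Olfr1272 and Olfr1273-ps, all below 0.3.

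Below an FPKM of 1 lay 14 entries, and none was listed at 0. Besides those named above, they included Olfr1233, the only MOR238 gene here, at 0.979. Olfr1230, the only MOR237 gene here, had 0.0449. It is a single-exon model without annotated untranslated regions, and all of its coding 50-mers were unique. The other single-exon gene, Olfr1248, had 0.323.

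Reads shared between similar genes were examined through the uniqueness of the coding sequences. All 50-mers were unique for 20 of the 74 entries with a model, and fewer than 60% were unique for 7. The median share of unique 50-mers was 88.1% here, 96.4% in the rest of the cluster and 92.2% over all other entries. The stretch was thus the less unique group. The 35 entries with at least 90% unique had a median FPKM of 4.21, and the 39 below had 2.87. In the rest of the cluster the 84 entries with at least 90% unique had 0.872. The log2 difference from the rest of the cluster was 2.15 among such genes and 1.84 among all. The part of shared reads in the levels was not tested.

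Annotated transcripts of these receptors had more exons and longer 5' untranslated regions (UTRs) than the rest of the cluster. Olfactory receptor genes keep their coding sequence in 1 exon, with the further exons upstream. The median 5' UTR was 574 nt over 73 entries, against 161 nt in the rest of the cluster and 282 nt over all other entries. Only 2 of 74 entries (2.70%) had a single exon, against 27 of 149 (18.1%) in the rest of the cluster and 118 of 1028 (11.5%) of all other entries. The 3' UTR had a median of 1990 nt, against 1284 nt in the rest of the cluster and 1606.5 nt over all other entries. The coding sequence was slightly shorter, with a median of 928.5 nt without the stop codon, against 939 nt in each of these groups.

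The difference in level was also seen at equal exon number. Among genes with 2 exons, the median FPKM was 2.96 over 33 entries here, 0.945 over 92 in the rest of the cluster and 1.01 over 594 of all others. Among genes with 3 exons it was 3.56, 1.16 and 1.48. With 4 or more it was 2.99 over 11 entries, 0.619 over only 4 and 2.21 over 73. Without single-exon genes the log2 difference from the rest of the cluster was 1.64.

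With longer 5' UTRs the median FPKM rose from tercile to tercile in the stretch and over all others, but not in the rest of the cluster. In the upper tercile of the whole table, 442 to 3411 nt, which held 41 of the entries here, the median FPKM was 4.21, against 0.916 in the rest of the cluster and 1.97 over all others. In the middle tercile, 195 to 441 nt, it was 2.33, 1.10 and 1.09. In the lowest tercile, up to 194 nt, it was 1.04 over 15 entries (1.24 with Olfr1506 counted once), 0.811 over 77 and 0.744 over 326. The groups were thus nearest to each other among genes with short annotated 5' UTRs. These lengths are as good as the annotated models, and their part in the difference was not tested.

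**Figure D4:**
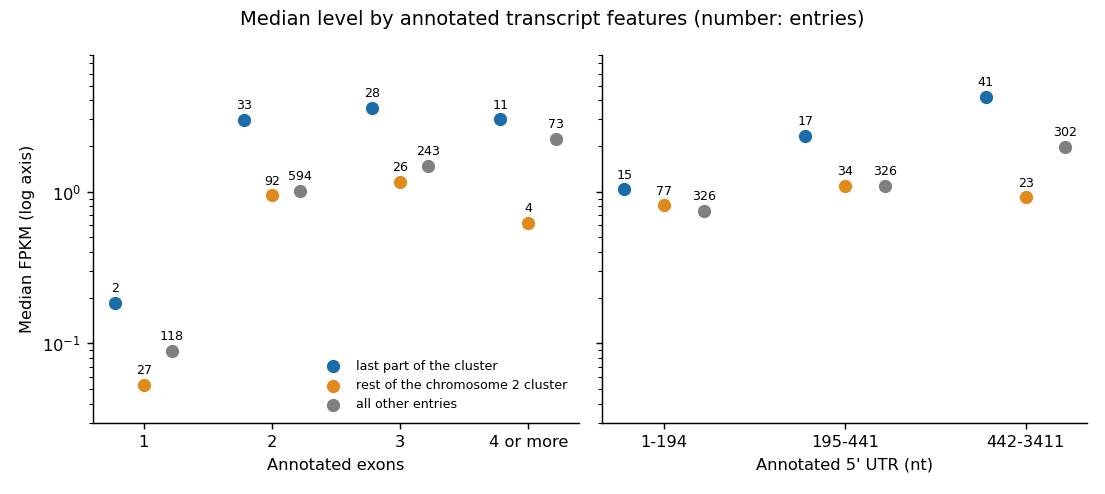
Median FPKM (vertical log axis) by number of annotated exons (left) and by length of the annotated 5' UTR in terciles of the whole table (right), with the number of entries above each point, for the last part of the cluster, the rest of the chromosome 2 cluster and all other entries. The blue points lie above the others in each stratum. In the tercile of 1 to 194 nt the points stand at 1.04 (1.24 with Olfr1506 counted once), 0.811 and 0.744.

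Within the stretch, 5' UTR length went with FPKM and exon number did so less. Spearman's rho was 0.344 for 5' UTR length over 73 entries (Pearson's r with log2 FPKM was 0.219) and 0.125 for exon number over 74 entries (r = 0.161). Over the whole table rho was 0.336 and 0.380. For 3' UTR length rho was -0.011 in the stretch. Upstream ATG triplets, which mark possible upstream reading frames, numbered a median of 11 per annotated 5' UTR here and 5 over all other entries. Of the 73 entries, 58 (79.5%) had 5 or more, with a median FPKM of 3.55, and 14 (19.2%) had 1 to 4, with 1.33. Of the 954 other entries with a 5' UTR, 526 (55.1%) had 5 or more, with a median FPKM of 1.48. Another 345 (36.2%) had 1 to 4, with 0.982, so the median rose with the number there too. The number of such triplets follows the length of the UTR and is not separate from it. The AU content of the 3' UTR had a median of 65.8% here, 68.3% in the rest of the cluster and 65.0% over all other entries. The genes share 1 table and 1 annotation, so these correlations describe this set of values.

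Similar proteins did not have more similar levels over most of the range. Identity between translated coding sequences ran from 42.9% to 98.4% over 2628 pairs of genes, with a median of 56.4%. Its rho with the absolute log2 difference in level was 0.0540 (r = 0.0210). The median difference was 1.55 log2 units at 50 to 60% identity, 1.62 at 60 to 70%, 1.49 at 70 to 80% and 1.62 at 80 to 90%. At 90% or more it was 1.08 over 22 pairs, the same order as the 1.12 at less than 50%.

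Among the 22 pairs with at least 90% identity, 11 differed by 2-fold or less and 6 by more than 5-fold. Over all 2775 pairs of the stretch the median log2 difference was 1.51, equal to a ratio of 2.84. Genes recur among the 22 pairs: all those over 5-fold, except Olfr1216 with Olfr1218, involve Olfr1201, Olfr1248 or Olfr1249. Olfr1196 and Olfr1197, at 95.9% identity, had 3.51 and 3.91. Olfr1199 and Olfr1209, at 92.9% and with over 95% of their coding 50-mers unique, had 5.01 and 4.43. By contrast, Olfr1249 and Olfr1251, at 94.7%, differed 17.2-fold, with 82.3% and 67.1% of the coding 50-mers unique. Olfr1248 and Olfr1252, at 91.4%, had 0.323 and 6.77, with 63.2% and 70.5% unique. Olfr1216 and Olfr1218, at 90.7%, had 3.45 and 0.355, with 81.1% and 81.8% of the coding 50-mers unique. For the most alike pairs the assignment of shared reads could move both values.

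**Figure D5:**
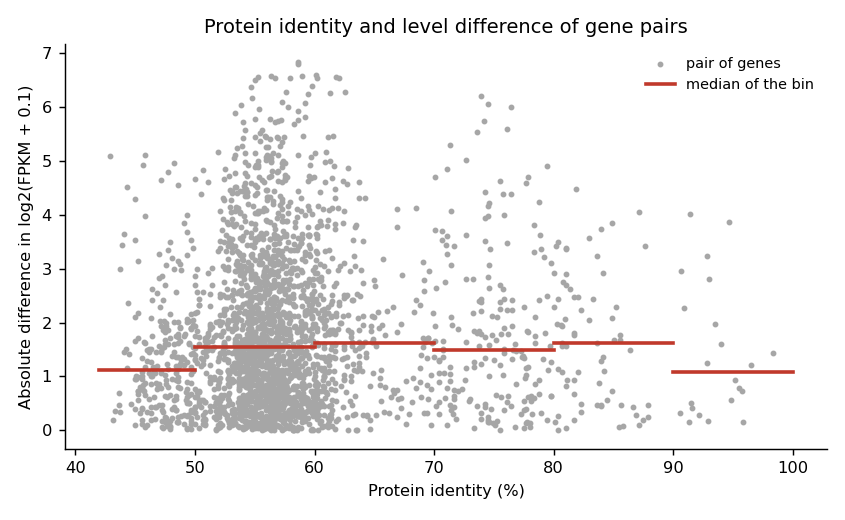
Absolute difference in log2(FPKM + 0.1) (vertical axis) against protein identity in percent (horizontal axis) for 2628 pairs of genes of the stretch, with the median per bin of identity in red. The bars from 50 to 90% lie between 1.49 and 1.62, and the bar at 90% or more lies at 1.08 over 22 pairs.

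The start windows of RefSeq (250 bases before to 50 after each gene's start, GRCm38) were searched on both strands for motifs known from receptor promoters. A window was given for 65 of the genes. For 59 of 64 the RefSeq start lay within 100 bases of the coding start, and for the other 5 it lay 1000 bases or more upstream, so most windows are at the coding start and not at a promoter. The homeodomain core TAATTA was found in 18 of 65 windows (27.7%), against 18.7% of 926 Olfr genes and 5.29% of all 32851 windows. Genes with it had a median FPKM of 2.43 and those without had 3.60. The related TAATGA was found in 16 (24.6%, against 29.2% and 9.78%), with medians of 3.64 and 3.07. The Ebf (O/E) site CCCNNGGG was found in 2 windows, those of Olfr1213 and Olfr1223 (3.08%, against 2.92% and 13.7%). A match is a description of letters, and no match says nothing of binding.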

How the data were processed

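Per the labels' protocols, RNA was extracted with Trizol and libraries followed the TruSeq procedure. The authors deposited 1 table of FPKM values for receptor genes, with 1 value per entry, a locus, a status and constant columns naming wt and 3bko, per the file headers. TopHat2, Bowtie2, Cuffdiff and the build mm9 are named in the submitters' processing notes, without versions. The sources used here give no annotation, read length or treatment of reads that match several genes. The FPKM was treated as a value of the series, tied to neither sample.

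Starts in the table count from 0 and were printed from 1. Names and MOR families came from RefSeq (74 entries matched by symbol, 1 by an older symbol). Transcript features used each gene's longest transcript with a coding sequence in GENCODE M21 (74 of 75 entries), and no GRCm38 coordinate was printed. A 50-mer was unique when it occurred in no other Olfr transcript. Proteins were translated from GENCODE and aligned globally (Biopython 1.88, BLOSUM62, gap penalties 11 and 1). Python 3.11.15, NumPy 2.4.6 and SciPy 1.17.1 were used. The functions were tested on simulated data.

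With 1 value per gene no test was made. The members, lists and comparisons were chosen with earlier results of these data known. Full values were given for the 15 highest and 8 lowest entries, the extremes of families with 3 or more entries, entries that share a value, adjacent pairs with the largest or smallest differences and the most identical pairs. Upstream ATG triplets, AU content, the 0.5 Mb steps and comparisons at equal exon number or UTR length were added after values were seen. Alternatives were other pseudocounts (0.01 and 1), filters (FPKM 0.1, status, pseudogenes, uniqueness, locus length, shared values) and other comparison sets.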

Additional observations from a re-analysis of the deposited data

How the results depend on the processing

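Among 94 alternatives, 86 moved a level, share or count by at most 1.5-fold, a log2 difference by at most 0.58 or a rank correlation by at most 0.1. On the log2 scale this let pass the median difference of adjacent genes at 0.70 with a pseudocount of 1 (1.15 otherwise) and the distal minus proximal difference of 0.043 when the stretch was divided at another place (0.15 otherwise). Single-exon genes left out, the 0.5 Mb step with the highest median left out, MOR names without a hyphen and the value of Olfr1506 counted once for MOR228, the last 0.5 Mb step and short 5' UTRs were chosen after seeing the data. The log2 difference from the other entries stayed between 1.06 (pseudocount 1) and 1.96 (at least 90% of coding 50-mers unique), and that from the rest of the cluster between 1.21 (pseudocount 1, by construction smaller for low genes) and 2.15. The number of members at FPKM 1 or more was 31 among the 35 entries with at least 90% unique, and 61 among all 75. With the threshold at FPKM 5 instead, 23 of all 75 entries reached it (30.7%, against 14.3% of the whole table). With at least 90% unique, the MOR232 median was 8.54 over fewer genes, rho with 5' UTR length was 0.479 and rho of protein identity with the level difference reversed to -0.0516, from 0.0540; the cause was not tested. The MOR227 median was 2.26 without pseudogenes. The median of the last 0.5 Mb step was 1.65 with Olfr1506 counted once, since 1 fewer value entered. MOR225, MOR227, MOR228 and MOR234 had no gene with at least 90% unique, so that filter gave no value for them. No paired analysis was possible because each gene has 1 value tied to neither sample, and leaving out a replicate was not run for the same reason. No window held both TAATTA and CCCNNGGG, so the motifs together gave no value. The depth is unknown, so counting error of the low values could not be given.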
